A study of Mus musculus with 26 samples.

Results

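Long stretches of chromatin occupied by RNA polymerase II (Pol II) over protein-coding genes were examined in RAW264.7, a macrophage-like line from mouse. Regions called in 8 Pol II ChIP-seq libraries were merged wherever they shared at least 1 bp. A merged region was kept if it was called in all 8 libraries, spanned at least 20000 bp and overlapped the span of a protein-coding gene in the RefSeq annotation of mm10. This left 326 of 46133 merged regions. Of the 17081 regions called in all 8 libraries, 353 reached that length, and 27 of those lay over no protein-coding gene. The members were therefore chosen by measured length, and lengths are given below as descriptions without a test.

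Both cell lines were RAW264.7 lines made for the study, 1 stable line for each construct. Nur77 cells make HA-tagged Nur77 and GFP cells make green fluorescent protein when doxycycline is added, and every sample had received 50 ng/ml doxycycline for 18 h. The groups were Nur77 cells given 500 ng/ml bacterial lipopolysaccharide (LPS) for 1 h, untreated Nur77 cells, GFP cells given LPS in the same way and untreated GFP cells, with 2 Pol II and 2 H3K27ac libraries each. HA ChIP-seq was available for Nur77 cells with LPS and without it (n = 3 each), and 1 input library was available for each line and condition. The labels do not state that replicates were separate cultures, so p-values measure the spread between these libraries, which may be technical. The effect of a line cannot be told apart from the effect of its construct.

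Pol II starts at a promoter, commonly pauses a short distance downstream, and crosses the gene body once it is released. It runs past the polyadenylation site before it leaves the template, so a heavily transcribed gene carries polymerase from its promoter to beyond its 3′ end. LPS acts through Toll-like receptor 4 and activates NF-kB, AP-1 and interferon regulatory factors, which turn on genes of inflammation within an hour. Nur77, encoded by Nr4a1, is an orphan nuclear receptor that is itself induced early in activated macrophages.

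Sequences are shown where later results return to them. The first set holds the upstream promoter bases of Tnfaip3, the gene of the NF-kB inhibitor A20, whose region is described below as filled after LPS, followed by all matches to an NF-kB motif among the promoters of the regions' lead genes. The lead gene of a region is the protein-coding gene with most bases under it. RefSeq promoter sequences of the build GRCm38.p6 (mm10) were searched on both strands over the 250 bases before each start. The NF-kB motif searched was 3 guanines, 2 bases of any kind, 3 thymines and 2 cytosines. The AP-1 motif was TGANTCA, and the NBRE, the site bound by Nur77 monomers, was AAAGGTCA. The letters TATAAA were also searched, at any place in the 250 bases. Capitals mark the matches, which do not overlap each other in Tnfaip3. All sequences are given 5′ to 3′ along the gene's strand, and the Tnfaip3 promoter covers chr10:19015411-19015660 on the minus strand.
Tnfaip3 promoter: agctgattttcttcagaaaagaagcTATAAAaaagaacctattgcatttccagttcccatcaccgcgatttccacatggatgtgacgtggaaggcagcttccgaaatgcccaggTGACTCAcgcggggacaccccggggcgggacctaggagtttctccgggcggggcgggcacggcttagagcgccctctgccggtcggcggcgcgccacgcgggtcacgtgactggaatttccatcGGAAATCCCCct
Ccl9 (chr11:83578652-83578681, minus strand): tttgaactttGGAAAGCCCCaagtcacctt
Dusp5 (chr19:53529045-53529074, plus strand): cagggggcggGGAAATACCCatatttggcc
Vim (chr2:13574078-13574107, plus strand): gtgatcaccaGGAAAGCCCCtgaaaggcct
Csf1 (chr3:107760604-107760633, minus strand): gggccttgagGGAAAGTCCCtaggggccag
Anxa4 (chr6:86793620-86793649, minus strand): tctccggggaGGGACTTTCCtgtgggcaaa
Mvd (chr8:122443450-122443479, minus strand): ggacagcacgGGAAAAGCCCggccagcggg
Pik3r2 (chr8:70776744-70776773, minus strand): tcgtgtggggGGAAAGGCCCgccctcccga
Zbtb26 (chr2:37443254-37443283, minus strand): cccacaacgcGGAAAGTCCCtctcaggggc
Slc37a4 (chr9:44396744-44396773, plus strand): ctacaattcaGGGAGTTTCCtgaatctgca
In the Tnfaip3 promoter the NF-kB match began 12 bases before the start, the AP-1 match 136 bases and the TATAAA match 225 bases before it. The second set holds the mature microRNAs of 3 long regions with different responses, given below. Capitals mark the seeds, bases 2 to 8, which are all different, and sequences and positions are those of RefSeq on the same build.
miR-155-5p (chr16:84714143-84714165, plus strand): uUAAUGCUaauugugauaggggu
miR-21a-5p (chr11:86584120-86584141, minus strand): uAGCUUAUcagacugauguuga
miR-142a-5p (chr11:87756867-87756887, plus strand): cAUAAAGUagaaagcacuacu

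The 8 Pol II libraries held 11882815 to 23120756 mapped tags. Per the file headers, a fragment length of 1550 bp was used for Nur77 untreated replicate 1, while the remaining Pol II libraries had 174 to 318 bp. The part of this setting in the called lengths, pieces and edges of Nur77 untreated cells was not tested. Of 33 macrophage lineage genes, 32 lay under a Pol II region called in all 8 libraries, against 4 of 16 genes of other cell types. None of those 16 lay under a long region. Of the 326 long regions, 193 (59.2%) overlapped a region called in an input library, against 16.6% of all 17081 regions called in all 8 libraries. The part of this overlap in the results was not tested, and counts for both classes are given below.

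The merged regions spanned 20015 to 126786 bp with a median of 25035.5 bp, and 41 reached 40000 bp. They covered parts of 733 protein-coding genes, and 130 lay over a single gene, 93 over 2 and 103 over 3 or more, with at most 10. A median of 75.8% of a region lay inside gene spans. The region just past the threshold lay over Tmem268 and Atp6v1g1 and spanned 20015 bp. The longest left out were those of Lrrc45 (19986 bp), Maff (19973 bp) and Zdhhc7 (19938 bp). The longest region, on chromosome 10 over Hmga2, a chromatin protein of the high-mobility group, was called over 99.2 and 111 kb in Nur77 LPS, 59.2 and 45.9 kb in Nur77 untreated, 126 and 97.2 kb in GFP LPS and 112 and 79.4 kb in GFP untreated libraries. Its libraries overlapped between conditions in GFP cells, and its summed tags did not pass the test in either line.

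A merged region is the union of 8 libraries, so a member need not be long in any particular one. The called pieces of the 326 regions added up to 6.97 and 8.30 Mb in Nur77 LPS libraries, against 5.73 and 5.71 Mb in Nur77 untreated libraries. In GFP cells they added up to 8.33 and 7.85 Mb with LPS, against 5.99 and 6.04 Mb without it. All 4 LPS libraries thus held more called length than any of the 4 untreated libraries. The regions took 10.9 and 10.9% of all Pol II length called in Nur77 LPS libraries and 7.91 and 8.13% in Nur77 untreated libraries. In GFP cells they took 10.5 and 10.6% with LPS and 8.86 and 8.46% without it. Their share of all tags in called regions was 19.3 and 21.1% in Nur77 LPS, 12.4 and 11.8% in Nur77 untreated, 19.9 and 18.7% in GFP LPS and 14.1 and 12.4% in GFP untreated libraries.

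**Figure D1:**
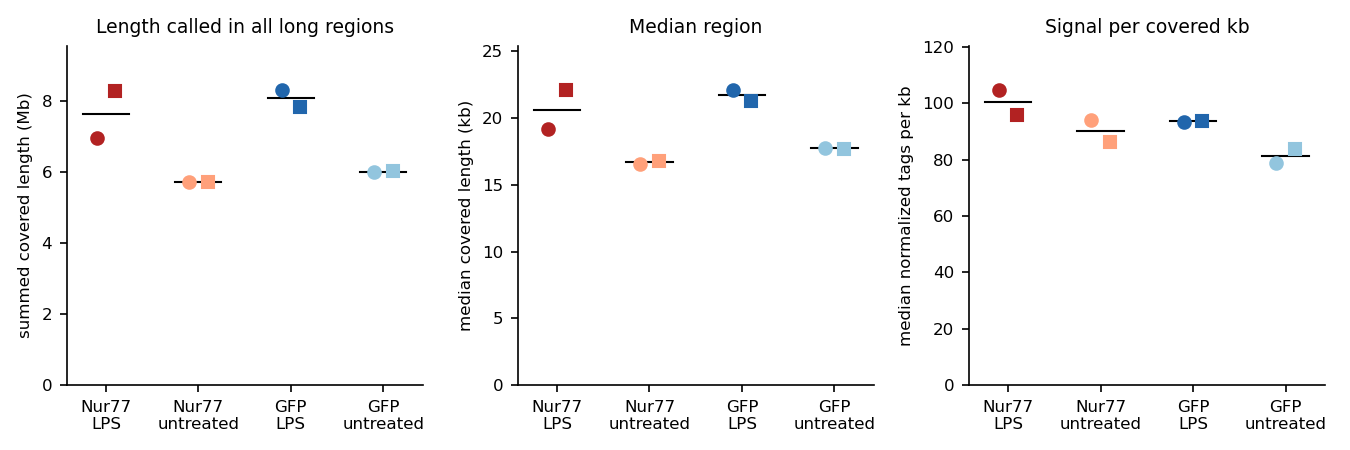
Summed called length over the 326 regions (Mb), median called length of a region (kb) and median deposited normalized tags per called kb, by group. Circles are replicate 1, squares are replicate 2 and bars are means of 2 libraries; both length measures are higher in every LPS library than in any untreated library, and tags per kb are higher with LPS within each line, while GFP LPS libraries lie level with Nur77 untreated replicate 1.

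The median region had 105 and 96.0 deposited normalized tags per called kb in Nur77 LPS, 94.2 and 86.4 in Nur77 untreated, 93.4 and 93.7 in GFP LPS and 78.9 and 83.7 in GFP untreated libraries. It was called over 19.2 and 22.1 kb in Nur77 LPS, 16.6 and 16.8 kb in Nur77 untreated, 22.1 and 21.3 kb in GFP LPS and 17.8 and 17.7 kb in GFP untreated libraries. Sequencing depth also moved with treatment, at 14028438 and 20908251 tags in Nur77 LPS, 12814149 and 18147397 in Nur77 untreated, 17720716 and 23120756 in GFP LPS and 11882815 and 19956862 in GFP untreated libraries. The part of depth in the called lengths was not tested, nor was that of the fragment length set for Nur77 untreated replicate 1.

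Region by region, both LPS libraries were longer than both untreated libraries at 199 of 326 regions (61.0%) in Nur77 cells and at 211 (64.7%) in GFP cells. Over all 17081 regions this held for 15.9% in Nur77 cells and 25.6% in GFP cells. Both LPS libraries were shorter at 48 long regions in Nur77 cells and at 49 in GFP cells, against 45.2% and 27.3% of all regions. The 180 regions longer in both lines were 90.5% of those in Nur77 cells and 85.3% of those in GFP cells, and 37 were shorter in both. Without Nur77 LPS replicate 2, the number shorter in Nur77 cells was 94. Among 1418 regions over genes of at least 10000 bp and under 20000 bp, 42.2% were longer in Nur77 cells and 45.3% in GFP cells. Of the 27 regions of at least 20000 bp over no protein-coding gene, 70.4% were longer in Nur77 cells and 66.7% in GFP cells. Where regions lengthened, the median gain was 8.88 kb (1.63-fold) in Nur77 cells and 8.12 kb (1.55-fold) in GFP cells, and 69 and 72 regions had at least 2 times the untreated length.

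**Figure D2:**
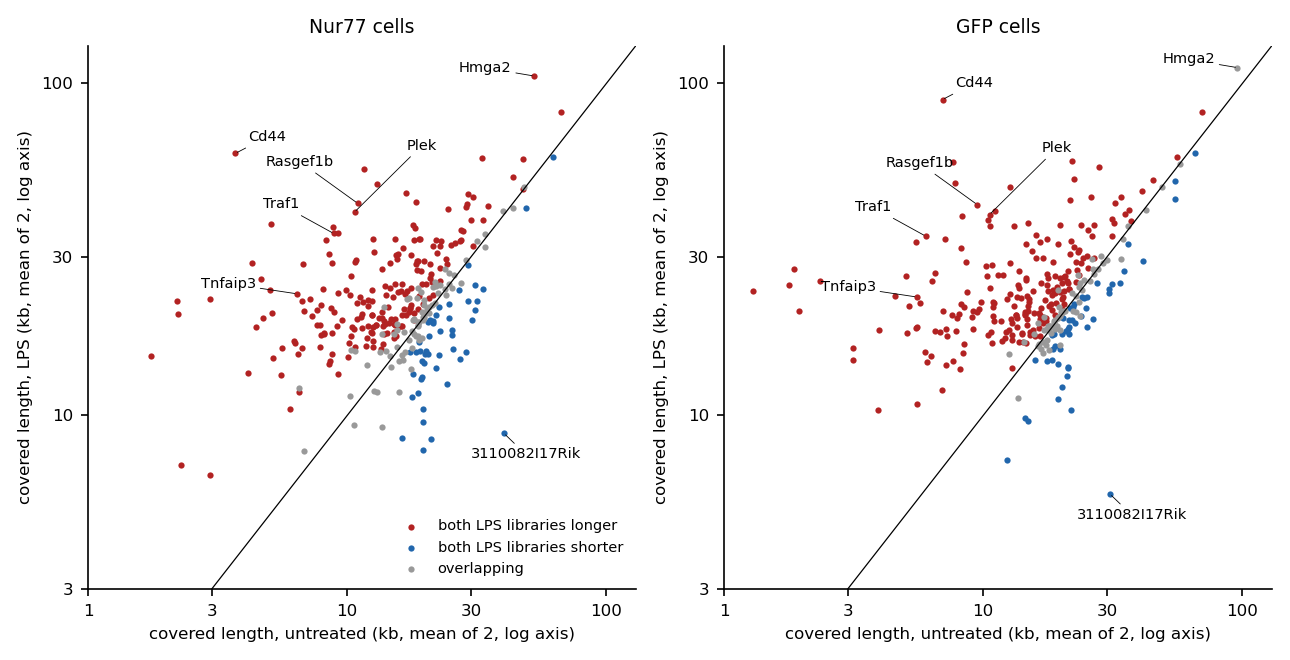
Called length of each of the 326 regions in LPS-treated cells (y axis, kb, mean of 2 libraries) against untreated cells (x axis, kb, mean of 2 libraries), both axes logarithmic, for Nur77 cells and GFP cells. Red points, 199 and 211 regions, were longer in both LPS libraries than in both untreated ones, blue points shorter and grey points overlapping; the line marks equal length.

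The rule itself favours regions that are long in either condition. In 136 members a length of 20 kb was covered in at least 1 LPS library and in no untreated library, in 21 the reverse held, in 122 both conditions had such a library, and in 47 no single library reached it. Counts of longer or higher members over all 326 are therefore a description. In the 122 regions that reached 20 kb in both conditions, both LPS libraries were longer at 55 in Nur77 cells and at 59 in GFP cells.

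The direction of lengthening could be read at 113 regions over a single gene with a strand in the RefSeq table. At 69 of them (61.1%) in Nur77 cells and at 78 (69.0%) in GFP cells, the called edge on the 3′ side of the gene lay farther downstream in both LPS libraries. It lay farther upstream in both at 11 and 7. The median shift was 1.92 kb in Nur77 cells and 1.98 kb in GFP cells, and 20 and 14 regions shifted by 10 kb or more. By the mean of 2 libraries the 3′ edge still lay inside the gene at 79 in Nur77 LPS and 80 in GFP LPS cells. Without LPS it did so at 91 in Nur77 and 87 in GFP cells. Edges were read only at these members, which the length rule favours where LPS extends them. Edge counts are therefore a description, with no share over all regions to set beside them. At the 5′ side the edge lay farther out at 49 in Nur77 cells and 59 in GFP cells, with a median shift of 0.30 kb in each line and with 6 and 3 regions shifted by 10 kb or more. It lay farther inside in both LPS libraries at 23 in Nur77 cells and 6 in GFP cells. The median share of the gene span covered was 29.6% in Nur77 LPS and 15.1% in Nur77 untreated cells, and 33.2% in GFP LPS and 16.5% in GFP untreated cells. At least 90% of the span was covered at 15 genes in Nur77 LPS and 3 in Nur77 untreated cells, and at 23 in GFP LPS and 5 in GFP untreated cells. Of these 113 genes, 74 and 70 were under 50% covered after LPS in Nur77 and GFP cells.

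The genes Traf1, Tnfaip3, Rasgef1b and Plek were at least 80% covered in all 4 LPS libraries and under 50% in all 4 untreated libraries, limits set after the values were seen. Traf1, an adaptor of tumour necrosis factor receptors, has a span of 20.1 kb on chromosome 2. Its region was called over 34.9 and 35.7 kb in Nur77 LPS, 7.50 and 10.2 kb in Nur77 untreated, 35.6 and 33.7 kb in GFP LPS and 5.98 and 6.02 kb in GFP untreated libraries. The untreated libraries held 2 to 4 separate pieces upstream of the start and within the gene, in 1 library also beyond its 3′ end, while 3 of 4 LPS libraries held 1 unbroken stretch from upstream of the start to beyond the 3′ end. Its summed tags, normalized to 10000000 mapped tags and scaled between libraries, were 10332 and 12908 in Nur77 LPS, 659 and 737 in Nur77 untreated, 9265 and 6922 in GFP LPS and 514 and 518 in GFP untreated libraries. The log2 change was 4.05 ± 0.20 in Nur77 cells (SE; adjusted p = 9.4e-05, limma with Benjamini-Hochberg adjustment over all 17081 regions) and 3.95 ± 0.20 in GFP cells (adjusted p = 0.00014).

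Tnfaip3 (chromosome 10, span 14.5 kb), whose promoter is printed above, was covered over 100% of its span in all 4 LPS libraries, and over 25.6 and 14.6% in Nur77 untreated and 19.7 and 15.6% in GFP untreated libraries. Untreated libraries held 3 pieces each, at the start, inside the gene and beyond the 3′ end. Its summed tags were 2261 and 2861 in Nur77 LPS, 223 and 213 in Nur77 untreated, 3562 and 1840 in GFP LPS and 289 and 216 in GFP untreated libraries, with no overlap between conditions. The log2 change was 3.54 ± 0.30 in Nur77 cells (limma, adjusted p = 0.00029) and 3.35 ± 0.30 in GFP cells (limma, adjusted p = 0.00052). Rasgef1b, a guanine nucleotide exchange factor for Ras family proteins, lies on chromosome 5 and spans 35.5 kb. Its region was called over 43.9 and 43.1 kb in Nur77 LPS, 12.1 and 9.85 kb in Nur77 untreated, 43.8 and 42.5 kb in GFP LPS and 8.58 and 10.4 kb in GFP untreated libraries. Each LPS library held it as 1 stretch, and its summed tags rose by 3.49 ± 0.17 on the log2 scale in Nur77 cells (limma, adjusted p = 9.4e-05) and by 2.91 ± 0.17 in GFP cells (limma, adjusted p = 0.00015).

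**Figure D3:**
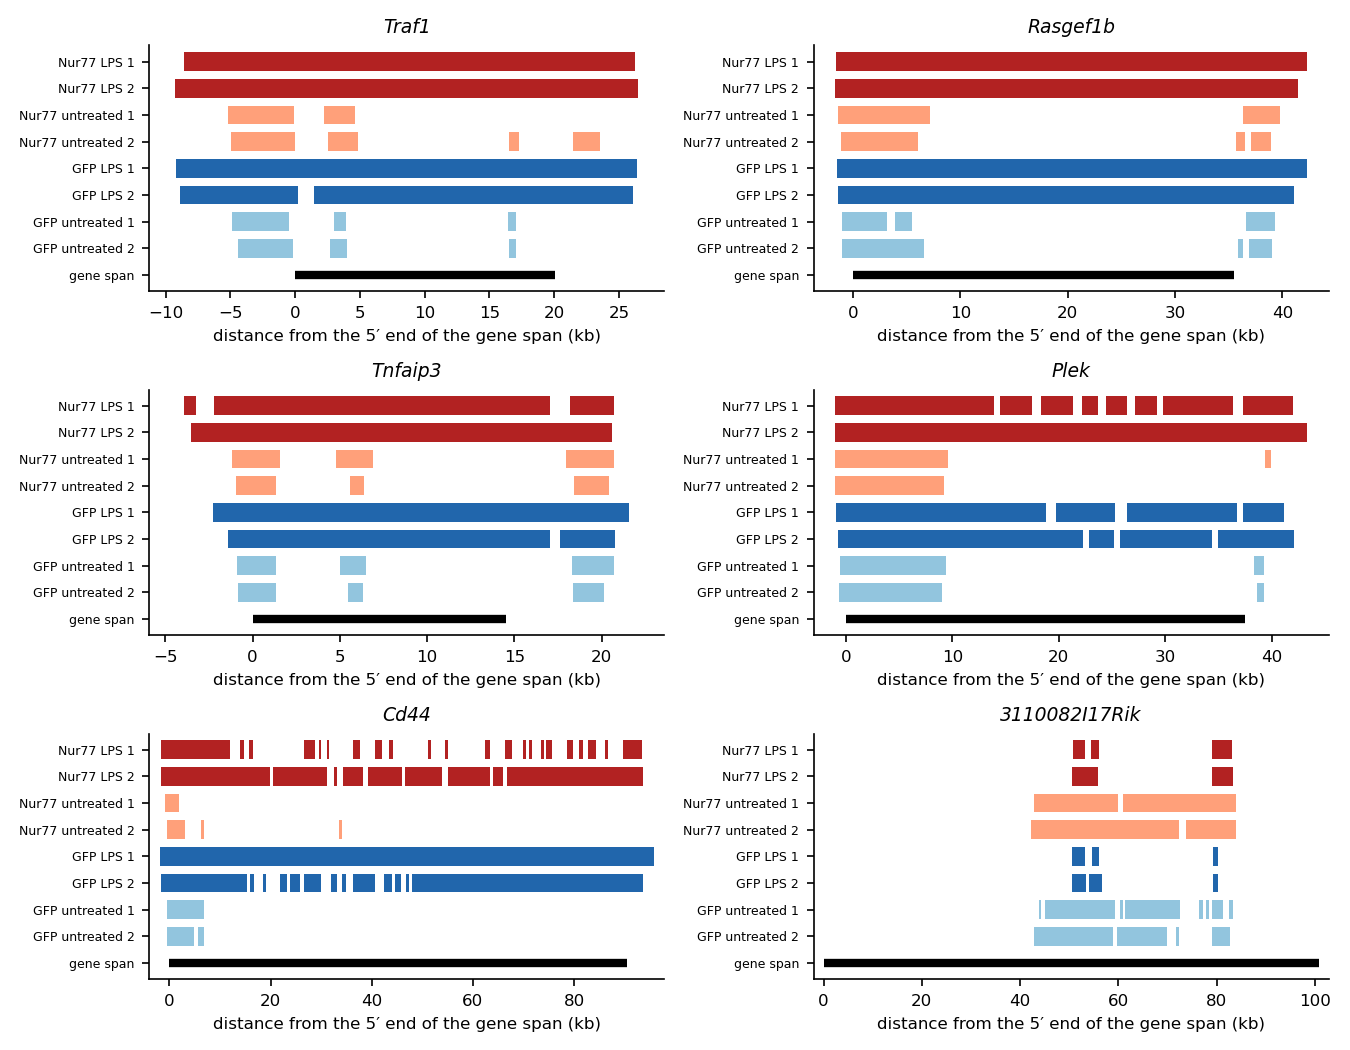
Called Pol II pieces (bars) in each of the 8 libraries over 6 long regions, drawn by distance from the 5′ end of the lead gene's span (kb), with the gene span in black. At Traf1, Tnfaip3, Rasgef1b, Plek and Cd44 the LPS libraries cover stretches that are bare in untreated libraries, and over 3110082I17Rik the untreated libraries are the longer ones.

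Signal was then split into the summed tags of a region and the tags per called kb, each tested in limma over all 17081 regions. Summed tags grow with called length, so the calls on them are not independent of the lengths above. Summed tags were higher after LPS at 190 long regions and lower at 16 in Nur77 cells, against 15.2% higher and 15.0% lower over all regions. In GFP cells they were higher at 157 and lower at 14, against 10.0% and 8.55% over all regions. The median log2 change was 1.04 in Nur77 cells and 0.79 in GFP cells, against 0.0090 and 0.0059 over all regions. Of the 190 and 157 higher regions, 116 and 108 were among the 136 that reached 20 kb in LPS libraries alone, which the length rule favours. In the 122 regions that reached 20 kb in both conditions, summed tags were higher at 56 and lower at 5 in Nur77 cells and higher at 38 and lower at 3 in GFP cells. The 153 regions higher in both lines were 80.5% of those in Nur77 cells and 97.5% of those in GFP cells. Without scaling between libraries the median over all regions was -0.40 in Nur77 cells and -0.15 in GFP cells, so changes are relative to that shift, and the calls were then 148 higher and 32 lower in Nur77 cells and 143 higher and 20 lower in GFP cells.

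Tags per kb were higher at 87 long regions and lower at 7 in Nur77 cells (6.5% and 5.7% of all regions), and higher at 78 and lower at 4 in GFP cells (4.2% and 2.96%). The median log2 change was 0.29 in Nur77 cells and 0.33 in GFP cells. In the 122 regions that reached 20 kb in both conditions, tags per kb were higher at 31 in each line and lower at 3 in Nur77 cells and none in GFP cells, and in the 136 they were higher at 53 and 44 and lower at 1 in each line. Unscaled, 68 long regions were higher and 12 lower in Nur77 cells and 59 and 7 in GFP cells. The median over all regions was then -0.15 in Nur77 cells and -0.16 in GFP cells. Shares over all regions were not taken for the unscaled fits. Single libraries weighed on the scaled counts. The 94 calls in Nur77 cells became 46 without Nur77 LPS replicate 2 and 44 without Nur77 untreated replicate 2, and the 82 in GFP cells became 44 without GFP LPS replicate 1 and 42 without GFP untreated replicate 2. Of the 190 regions with higher summed tags in Nur77 cells, 86 (45.3%) were also denser and 103 did not pass the test per kb. In GFP cells 76 of 157 (48.4%) were also denser and 80 did not pass. Regions over an input region counted 116 higher and 8 lower of 193 in Nur77 cells and 91 higher and 9 lower in GFP cells, and the other 133 counted 74 higher and 8 lower in Nur77 cells and 66 higher and 5 lower in GFP cells.

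**Figure D4:**
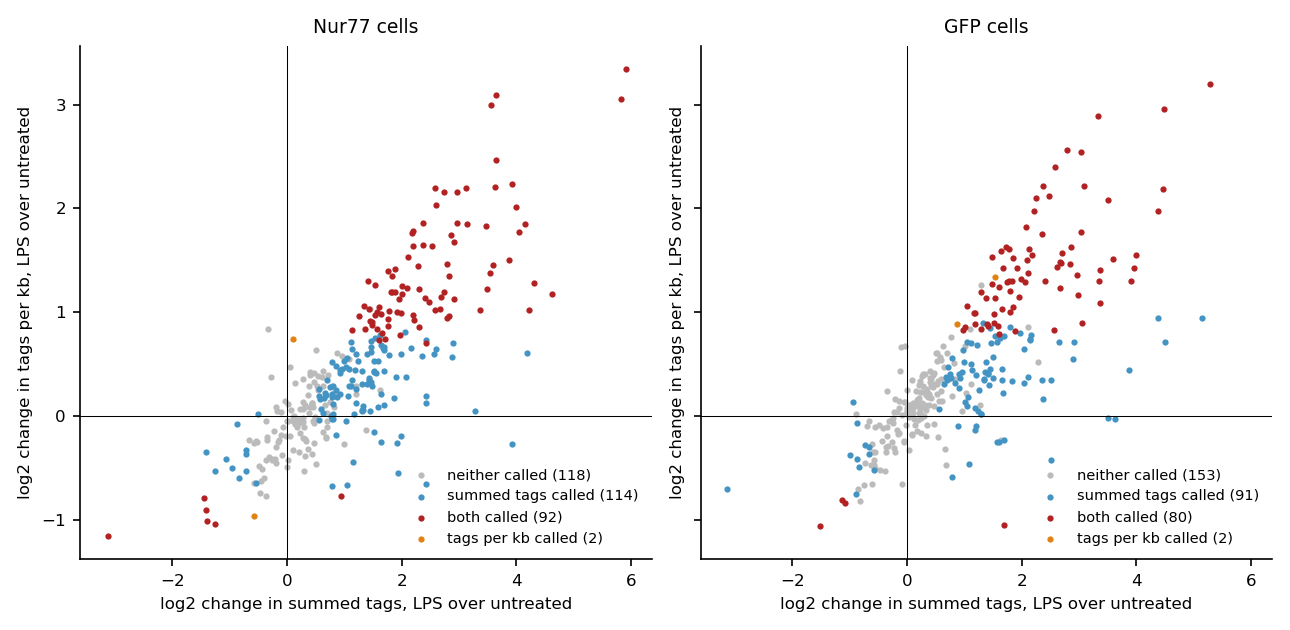
Log2 change in tags per called kb (y axis) against log2 change in summed tags (x axis), LPS over untreated, for the 326 regions in Nur77 cells and GFP cells. Colours give which of the 2 measures passed an adjusted p of 0.05 in limma; 92 regions in Nur77 cells and 80 in GFP cells passed on both.

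Some regions held little signal before LPS and became both long and dense. The largest rise in summed tags in Nur77 cells lay over Ccrl2, a chemerin-binding atypical receptor of activated macrophages, and 9.46% of that region was inside gene spans. It had 5875 and 6559 scaled tags in Nur77 LPS, 65.4 and 159 in Nur77 untreated, 5370 and 5593 in GFP LPS and 186 and 322 in GFP untreated libraries. This was a log2 change of 5.91 ± 0.40 in Nur77 cells (limma, adjusted p = 0.00014) and 4.48 ± 0.40 in GFP cells (limma, adjusted p = 0.0005). Cd83, a surface glycoprotein of activated antigen-presenting cells, had 4255 and 5656 in Nur77 LPS, 75.5 and 96.1 in Nur77 untreated, 9822 and 5167 in GFP LPS and 165 and 199 in GFP untreated libraries. Its called length was 25.1 and 26.5 kb in Nur77 LPS, 4.26 and 5.00 kb in Nur77 untreated, 28.2 and 25.5 kb in GFP LPS and 5.69 and 7.30 kb in GFP untreated libraries. Neither measure overlapped between conditions at Cd83. Tags per kb rose there by 3.05 ± 0.28 on the log2 scale in Nur77 cells (limma, adjusted p = 3.4e-05) and by 3.20 ± 0.28 in GFP cells (limma, adjusted p = 3.5e-05).

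Further regions of this kind lay over Nlrp3, the sensor of an inflammasome, with log2 changes in summed tags of 4.15 in Nur77 cells and 4.46 in GFP cells. At Cybb, the catalytic subunit of the phagocyte NADPH oxidase, they were 3.92 and 3.51, and at the kinase Src 4.30 and 3.90. All 3 passed the test in both lines, in summed tags and in tags per kb. Hdac1 and Marcksl1, a histone deacetylase and an actin-binding protein of the MARCKS family, shared a region that rose by 4.00 in Nur77 cells and 4.38 in GFP cells. Its 31.5% share inside gene spans, and the 9.46% at Ccrl2, mean that much of these regions was intergenic by this annotation.

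The region on chromosome 16 that overlapped Mrpl39 lay mostly outside it, with 21.4% inside protein-coding spans, and covered Mir155hg, the host transcript of the miR-155 sequence printed above. It was called over 21.3 and 23.6 kb in Nur77 LPS, 2.35 and 3.58 kb in Nur77 untreated, 25.1 and 22.3 kb in GFP LPS and 1.44 and 1.14 kb in GFP untreated libraries. Summed tags were 3386 and 4536 in Nur77 LPS, 186 and 234 in Nur77 untreated, 5658 and 3281 in GFP LPS and 116 and 126 in GFP untreated libraries. All LPS libraries stood far above all untreated ones, with log2 changes of 4.23 ± 0.27 in Nur77 cells (limma, adjusted p = 0.00013) and 5.14 ± 0.27 in GFP cells (limma, adjusted p = 0.00014). This region did not overlap a region called in input. The region over Vmp1 and Tubd1 that holds Mir21a kept its length, at 16.0 and 19.0 kb in Nur77 LPS, 14.0 and 16.2 kb in Nur77 untreated, 18.4 and 18.3 kb in GFP LPS and 16.5 and 19.0 kb in GFP untreated libraries, and rose in tags per kb by 1.41 and 1.59 on the log2 scale in Nur77 and GFP cells. The region over Tspoap1 that holds Mir142, whose microRNA is typical of blood cells, changed by 0.47 and -0.05 in summed tags and passed in neither line. In all, 27 long regions lay over a microRNA gene, of which 15 had higher summed tags in Nur77 cells and 9 in GFP cells, and none had lower ones, beside 58.3% and 48.2% higher over all 326 long regions.

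At a second kind of region, length was gained and density was not called. Cd44, the hyaluronan receptor, spans 90.5 kb on chromosome 2, and its region was called over 35.6 and 87.5 kb in Nur77 LPS, 2.80 and 4.61 kb in Nur77 untreated, 97.8 and 81.0 kb in GFP LPS and 7.39 and 6.55 kb in GFP untreated libraries. The calls were broken into 22 and 9 pieces in Nur77 LPS and 1 and 13 in GFP LPS libraries, so replicates differed in how continuous the cover was. Summed tags were 2205 and 3321 in Nur77 LPS, 150 and 210 in Nur77 untreated, 8015 and 3177 in GFP LPS and 473 and 350 in GFP untreated libraries. They rose by 3.92 ± 0.42 on the log2 scale in Nur77 cells (limma, adjusted p = 0.00069) and by 3.63 ± 0.42 in GFP cells (limma, adjusted p = 0.0014). Tags per kb were 54.2 and 37.7 in Nur77 LPS, 65.1 and 46.0 in Nur77 untreated, 83.7 and 37.5 in GFP LPS and 61.5 and 53.4 in GFP untreated libraries, which overlapped between conditions in both lines.

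Plek, the leukocyte and platelet protein pleckstrin, was called over 37.6 and 44.3 kb in Nur77 LPS, 11.1 and 10.2 kb in Nur77 untreated, 39.4 and 41.1 kb in GFP LPS and 10.9 and 10.3 kb in GFP untreated libraries. Untreated libraries held 1 stretch over the first part of the gene, and all but Nur77 untreated replicate 2 also held a short piece beyond the 3′ end. Its summed tags rose by 1.93 ± 0.19 on the log2 scale in Nur77 cells (limma, adjusted p = 0.00049) and by 1.68 ± 0.19 in GFP cells (limma, adjusted p = 0.0012), with tags per kb at -0.26 ± 0.23 and -0.23 ± 0.23, neither past the test. Mapkapk2, a kinase downstream of p38, had 47.0 and 63.2 kb in Nur77 LPS, 9.58 and 13.7 kb in Nur77 untreated, 49.9 and 50.1 kb in GFP LPS and 5.17 and 10.5 kb in GFP untreated libraries. Its tags per kb fell by 1.05 ± 0.22 on the log2 scale in GFP cells (limma, adjusted p = 0.012), a call lost without GFP LPS replicate 1, GFP untreated replicate 1 or GFP untreated replicate 2. Regions with at least 2 times the length and no call per kb, limits set after the values were seen, numbered 34 of the 190 higher ones in Nur77 cells and 41 of the 157 in GFP cells. They included those of Clic4, Csf1 and Cd40 in both lines. Those with at least 2 times the length and higher tags per kb numbered 31 and 25.

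Other regions gained density while their called length after LPS was less than 2 times the untreated length. The region on chromosome 17 that holds Tnf, Lta and Ltb, 3 cytokine genes of the tumour necrosis factor family, was called over 77.4 and 86.3 kb in Nur77 LPS, 66.4 and 66.7 kb in Nur77 untreated, 80.4 and 83.7 kb in GFP LPS and 68.7 and 71.0 kb in GFP untreated libraries. Its tags per kb were 778 and 895 in Nur77 LPS, 211 and 194 in Nur77 untreated, 803 and 678 in GFP LPS and 120 and 129 in GFP untreated libraries. They rose by 2.04 ± 0.21 on the log2 scale in Nur77 cells (limma, adjusted p = 8.1e-05) and by 2.56 ± 0.21 in GFP cells (limma, adjusted p = 2.3e-05). The region also covers Nfkbil1, Ddx39b, Aif1, Atp6v1g2 and Lst1, and the value is that of the whole region. Ccl4 and Ccl3, chemokines that attract monocytes and lymphocytes, shared a region with 1485 and 2163 tags per kb in Nur77 LPS, 226 and 195 in Nur77 untreated, 877 and 1173 in GFP LPS and 108 and 169 in GFP untreated libraries. Groups did not overlap between conditions there, and the log2 changes were 3.09 ± 0.28 in Nur77 cells (limma, adjusted p = 3.4e-05) and 2.89 ± 0.28 in GFP cells (limma, adjusted p = 6.9e-05). The region of Ccl4 and Ccl3 was also longer in both LPS libraries than in both untreated libraries of each line.

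The inhibitory receptor genes Lilr4b and Lilrb4a shared a region held as 1 piece in all 8 libraries, at 19.9 to 24.0 kb. Its tags per kb were 1488 and 2025 in Nur77 LPS, 401 and 355 in Nur77 untreated, 2006 and 1388 in GFP LPS and 310 and 414 in GFP untreated libraries, with log2 changes of 2.20 in Nur77 cells and 2.22 in GFP cells. Clec4d and Clec4e, C-type lectin receptors for microbial lipids, had 689 and 847 in Nur77 LPS, 112 and 80.7 in Nur77 untreated, 766 and 614 in GFP LPS and 154 and 108 in GFP untreated libraries. Both regions were denser after LPS in every library. In all, 25 of the 190 higher regions in Nur77 cells and 21 of the 157 in GFP cells had higher tags per kb and less than 1.25 times the untreated length. Regions that shortened are included, and the limits were again set after the values were seen. Lilr4b and Lilrb4a, and Lyz1 and Lyz2 below are near copies of each other, and how reads that fit more than 1 place were counted is not given in the sources used here.

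Some of the densest regions were not called. The region over Frmd8, of which 9.32% lay inside protein-coding spans, also holds the abundant non-coding RNAs Malat1 and Neat1 and was among the 8 densest. It had 523 and 540 tags per kb in Nur77 LPS, 835 and 772 in Nur77 untreated, 752 and 529 in GFP LPS and 1166 and 856 in GFP untreated libraries. All LPS libraries were below the untreated libraries of their line, yet the log2 changes of -0.59 ± 0.27 and -0.66 ± 0.27 did not pass the test in either line. The histone gene cluster on chromosome 3, led by H2bc21 with 10 core histone genes, was also among the 8 densest and passed in neither line.

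Few long regions lost polymerase. The largest fall in both lines lay within 3110082I17Rik on chromosome 5, over Gpr146, an orphan G protein-coupled receptor, and C130050O18Rik. The region was called over 8.07 and 9.58 kb in Nur77 LPS, 40.3 and 40.2 kb in Nur77 untreated, 5.09 and 6.50 kb in GFP LPS and 30.9 and 30.8 kb in GFP untreated libraries. Summed tags were 318 and 323 in Nur77 LPS, 2762 and 2805 in Nur77 untreated, 149 and 151 in GFP LPS and 1248 and 1439 in GFP untreated libraries. The log2 change was -3.12 ± 0.14 in Nur77 cells (limma, adjusted p = 8.5e-05) and -3.15 ± 0.14 in GFP cells (limma, adjusted p = 0.00014). What remained after LPS were 2 or 3 short pieces within the former stretch, as the plot of called pieces shows.

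Of the other falls, the more upstream of 2 long regions at Zfp710, a zinc finger protein, changed by -1.45 ± 0.19 in Nur77 cells (limma, adjusted p = 0.0014) and by -0.87 ± 0.19 in GFP cells (limma, adjusted p = 0.016). Pik3r2, a regulatory subunit of phosphoinositide 3-kinase, led a region that fell by 1.06 and 0.73 on the log2 scale in Nur77 and GFP cells. The region at Itpr3, an intracellular calcium channel, lay 6.88% inside gene spans and fell by 1.41 in Nur77 cells and by 0.88 in GFP cells, the second call being lost without GFP LPS replicate 2, GFP untreated replicate 1 or GFP untreated replicate 2. At Lyz2 and Lyz1, the lysozyme genes, summed tags were 2514 and 2960 in Nur77 LPS, 5023 and 3295 in Nur77 untreated, 2378 and 2389 in GFP LPS and 7307 and 6335 in GFP untreated libraries. The fall of 1.51 ± 0.24 on the log2 scale passed the test in GFP cells (limma, adjusted p = 0.0051), and the change in Nur77 cells was -0.58 ± 0.24 (limma, adjusted p = 0.11). At Lmna, the gene of lamins A and C, the change was -1.40 ± 0.28 in Nur77 cells (limma, adjusted p = 0.0086), a call lost without Nur77 untreated replicate 2, and -0.48 ± 0.28 in GFP cells (limma, adjusted p = 0.28). The lines' responses at Lyz2 and Lmna were not shown to differ, since no region passed the test of the difference between the lines' LPS responses.

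Long regions were then grouped by the genes they cover. The counts of each list stand beside 58.3% of all 326 long regions with higher summed tags in Nur77 cells and 48.2% in GFP cells, and are a description. All 7 over cytokine and chemokine genes had higher summed tags in both lines, with median log2 changes of 2.87 in Nur77 cells and 3.03 in GFP cells, and all 7 were longer in both lines. Beside those of Tnf, Ccl3 and Ccl4 they were the regions of Csf1, the macrophage growth factor, Ccl9, Tnfsf9, Csf3 and Il27. At Csf1 summed tags were 407 and 823 in Nur77 LPS, 54.4 and 63.3 in Nur77 untreated, 2976 and 1545 in GFP LPS and 174 and 121 in GFP untreated libraries. Of 13 regions over genes of the NF-kB pathway and its feedback, 12 rose in each line, with median log2 changes of 2.87 and 2.67. These included Cd83, Nlrp3, Cd40, Traf1, Tnfaip3 and Nfkbiz, an atypical inhibitor of NF-kB that also activates secondary genes, at 3.36 in Nur77 cells and 2.95 in GFP cells. The exception was the region over Nfkbid and Tyrobp, at 0.21 and 0.07.

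Of 3 regions over AP-1 family genes, those of Atf3 and Junb rose in both lines and that of Mafg did not pass in either, though it was called lower in Nur77 cells, at -0.64, without scaling. Atf3, a stress-induced factor, had 6509 and 8267 scaled tags in Nur77 LPS, 1284 and 1473 in Nur77 untreated, 6851 and 7505 in GFP LPS and 1455 and 2228 in GFP untreated libraries. The immediate-early list had 5 long regions, of which those of Dusp4, Dusp5, Mcl1 and Zfp36 rose in both lines and that of Plk3 did not pass. In the interferon list, Ifih1, an RNA sensor, rose by 4.62 and 4.37 and Oasl1, a 2′-5′ oligoadenylate synthetase-like protein, by 2.90 and 2.11, while Irf5 at 0.37 and 0.62 did not pass.

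Of 9 regions over macrophage identity genes, 4 rose in each line and 1, that of the lysozyme genes, fell in GFP cells. Cd14, a co-receptor for LPS, rose by 2.38 and 1.67, whereas Spi1, the lineage factor PU.1, passed in GFP cells, at 1.25, and not in Nur77 cells, at 0.68, with no call on the difference between the lines. Of 9 lysosome and lipid regions, 4 rose in Nur77 cells and 2 in GFP cells, with Ctsb and Ctsz, genes of cathepsins, among them in both. Of 9 cytoskeleton and adhesion regions, 7 rose and 1 fell in Nur77 cells and 6 rose in GFP cells. These included 2 separate regions over Lcp1, an actin bundler of leukocytes, and those of Vim and Plec, genes of vimentin and plectin.

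Of 10 regions over ribosomal protein and translation factor genes, 4 passed as higher in Nur77 cells, and 1, that of Pabpc1, in GFP cells, where the call was lost without GFP untreated replicate 1. Without scaling between libraries none passed in Nur77 cells and 1 in GFP cells. Neither of the 2 glycolysis regions, over Hk3 and Aldoa, passed, and their medians of 0.12 in Nur77 cells and -0.05 in GFP cells became -0.29 and -0.21 unscaled. Of 7 chromatin and RNA-binding regions, whose median in Nur77 cells was 0.12 and became -0.30 unscaled, the one over Kdm6b, a histone demethylase induced by LPS, rose by 1.61 and 1.53. The one over Hnrnpl fell by 0.54 and 0.57, and in GFP cells that call was lost without either GFP replicate of either condition or without either Nur77 untreated replicate.

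**Figure D5:**
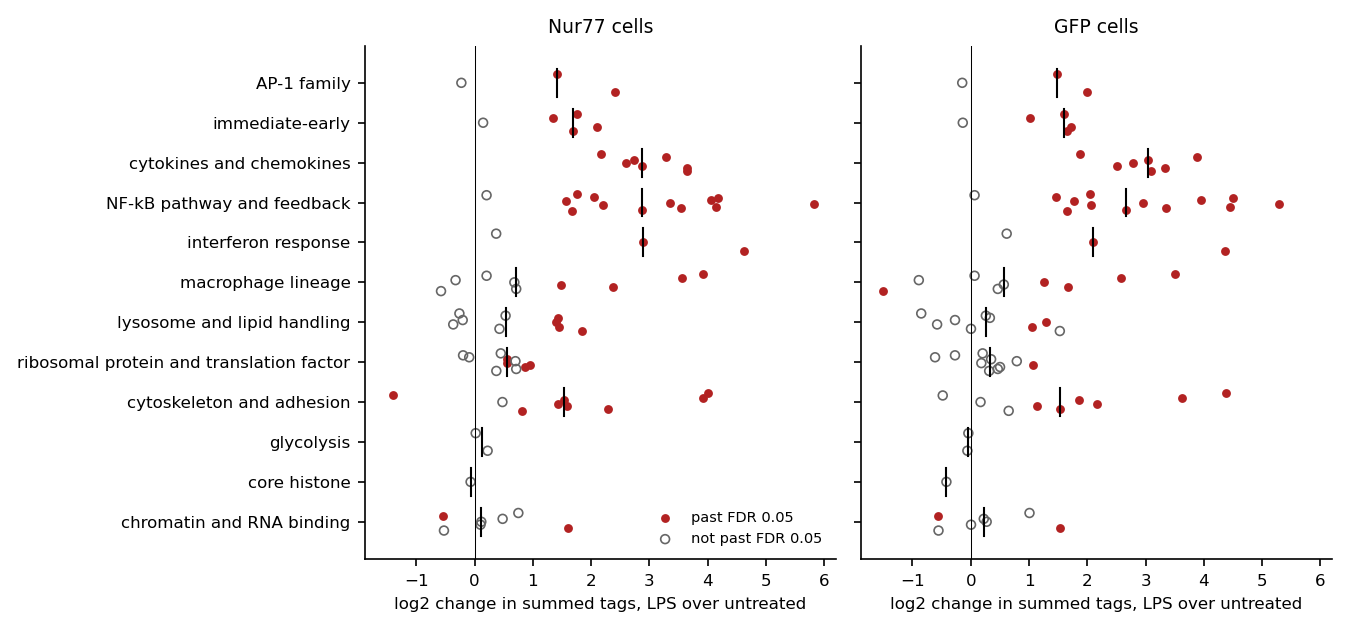
Log2 change in summed tags, LPS over untreated, of long regions grouped by gene list, in Nur77 cells and GFP cells. Each point is a region, filled where the adjusted p in limma passed 0.05, and bars are medians; the cytokine and NF-kB lists lie to the right, with medians of 2.87 and 2.87 in Nur77 cells and 3.03 and 2.67 in GFP cells.

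H3K27ac, a mark of active promoters and enhancers, was measured in separate libraries and not used in choosing the regions. The Pol II length rule still favours regions that LPS extends, with 136 reaching 20 kb in LPS libraries alone and 21 in untreated libraries alone. Counts of H3K27ac over the members are therefore a description, and its agreement with Pol II was not counted over all regions. All 326 regions carried an H3K27ac peak in all 8 libraries, against 94.7% of the other regions. A long region has more bases for a peak to touch, and the part of length in this share was not tested. Per the file headers, H3K27ac peaks were not all called alike. A filter on local tag density was off in both Nur77 LPS libraries and in replicate 2 of the Nur77 untreated, GFP LPS and GFP untreated groups. It was not turned off in replicate 1 of those 3 groups, and its part in the counts was not tested. H3K27ac tags were higher after LPS at 199 and lower at 54 in Nur77 cells, with 30.8% and 29.6% of the 16189 regions tested. In GFP cells they were higher at 200 and lower at 46, with 30.0% and 27%. Unscaled, the split was 118 higher and 114 lower in Nur77 cells and 143 and 110 in GFP cells, with a median over all regions of -0.41 and -0.37. Of the 190 regions with higher Pol II in Nur77 cells, 177 (93.2%) had higher H3K27ac and none lower, and in GFP cells 154 of 157 (98.1%) had higher and none lower. Of those with lower Pol II, H3K27ac was lower at 15 of 16 in Nur77 cells and at 12 of 14 in GFP cells.

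At Traf1 the H3K27ac tags were 2191 and 2182 in Nur77 LPS, 668 and 606 in Nur77 untreated, 1877 and 1711 in GFP LPS and 469 and 486 in GFP untreated libraries, log2 changes of 1.78 and 1.91. The largest H3K27ac rise in Nur77 cells lay at Src, with 633 and 659 in Nur77 LPS, 71.0 and 69.4 in Nur77 untreated, 880 and 838 in GFP LPS and 114 and 113 in GFP untreated libraries, log2 changes of 3.18 ± 0.06 in Nur77 cells (limma, adjusted p = 7.6e-07) and 2.91 ± 0.06 in GFP cells (limma, adjusted p = 8.9e-07). At Cd44, where Pol II length grew most, H3K27ac rose by 0.90 and 1.01. Within 3110082I17Rik it fell by 2.17 and 1.77. A peak of H3K27ac was counted if it touched the region, so part of its tags may lie outside.

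HA-Nur77 peaks were centred in 323 of the 326 regions in at least 1 HA library and in 211 (64.7%) in all 6, against 35.1% of the other Pol II regions. Long regions offer more bases in which a peak can lie, and the part of length in this share was not tested. Per the file headers, HA libraries held 6414329 to 18246790 mapped tags, and the peak size set for a library ran from 342 to 1017 bp. The part of depth or peak size in the HA tags was not tested. Of the 211, HA tags were higher after LPS at 6 and lower at none (1.31% and 0.279% of 6087 regions tested). The 6 were those of Src, Tnfrsf8, Phldb1, Oasl1, Orai2 with Prkrip1, and Mllt6. A fit that blocked on replicate number called 86, of which 63 were higher and 23 lower (13.2% and 12.9% of the 6087 regions). The count was 1 unscaled, 1 without LPS replicate 1, 3 without LPS replicate 3, and 0 without untreated replicate 1 or untreated replicate 3.

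At Src the HA tags were 112, 271 and 217 in Nur77 LPS libraries, against 20.2, 44.7 and 26.0 in Nur77 untreated libraries, which did not overlap. The log2 change was 2.67 ± 0.39 (limma, adjusted p = 0.011), and Pol II and H3K27ac rose there in GFP cells as well. Tnfrsf8, the receptor CD30, had 342, 516 and 428 with LPS and 59.9, 169 and 103 without it, a log2 change of 2.05 ± 0.37 (limma, adjusted p = 0.025). At Tnfaip3 the HA tags were 333, 276 and 288 with LPS and 209, 169 and 184 without it, which did not overlap, and the change of 0.67 ± 0.25 did not pass (limma, adjusted p = 0.2), but passed with the replicate block (limma, adjusted p = 0.0033). At Plek they were 326, 226 and 259 with LPS and 291, 255 and 315 without it, which overlapped, and the change did not pass with or without the block.

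Between the lines, few long regions were called in the fit without a replicate block, which is used here. More were called with it, as given at the end, but no share over all regions was taken for that fit. After LPS, summed tags were higher in Nur77 than in GFP cells at 4 long regions and lower at none (0.872% and 0.65% of all regions). Without LPS they were higher at 1 and lower at none (0.111% and 0.0585%). The region in 3110082I17Rik counted in both comparisons, at 1.09 ± 0.14 with LPS (limma, adjusted p = 0.032) and 1.05 with none (limma, adjusted p = 0.047). Rgs3, a regulator of G protein signalling, had 1960 and 1930 tags in Nur77 LPS and 1032 and 908 in GFP LPS libraries, a difference of 1.01 ± 0.15 (limma, adjusted p = 0.035). The region of Slc16a13, Bcl6b and Slc16a11, over 2 monocarboxylate transporter genes and a transcriptional repressor gene, had 1891 and 2252 in Nur77 LPS and 1076 and 1102 in GFP LPS libraries. Its H3K27ac tags were 3090 and 3293 in Nur77 LPS and 582 and 631 in GFP LPS libraries, and 2329 and 2410 in Nur77 untreated and 484 and 482 in GFP untreated libraries. The remaining region lay over Apbb3 and Slc35a4.

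These calls were lost when single libraries were left out. With any Nur77 Pol II library or either GFP LPS library left out, none of the 4 passed after LPS, and the call without LPS was lost when any of the 8 libraries other than GFP untreated replicate 2 was left out, while 2 regions passed without that library. In tags per kb no long region passed the test between the lines with LPS or without it (limma, 0.135% higher and 0.041% lower over all regions with LPS, 0.111% and 0.0351% without), with 29 and 23 below an unadjusted p of 0.05. No long region and no other region passed the test of the difference between the lines' LPS responses (limma, 0.0% of 17081), with 16 long regions below an unadjusted p of 0.05 in summed tags and 4 in tags per kb. In summed tags this difference, Nur77 minus GFP, was positive at 235 long regions and negative at 91. Its median was 0.19, against -0.0055 over all regions. In tags per kb it was positive at 135 and negative at 191, with a median of -0.06. Unscaled, the median LPS change in summed tags over all regions was -0.40 in Nur77 cells and -0.15 in GFP cells. The signs in summed tags therefore depend on the scaling, and they were not counted unscaled.

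Motifs were counted in the 250 bases before the start of the 226 lead genes whose start lay in their region and whose promoter was in the RefSeq table. The NF-kB motif was found in 10 of 226 (4.42%), against 244 of 17492 promoters of protein-coding genes (1.39%). It was found in 7 of the 98 with higher Pol II in both lines, in 1 of 6 with lower Pol II in both, the Pik3r2 promoter printed above, and in none of 85 called in neither line. The other 2, Zbtb26 and Slc37a4, led regions called higher in Nur77 cells and not called in GFP cells, with no call on the difference. The AP-1 motif was found in 6.64% of the 226 and 6.18% of all promoters, TATAAA in 5.31% and 12.4%, and AAAGGTCA in 0.442% and 1.13%. None of the 98 promoters held AAAGGTCA in this window. These are matches of letters in a short window and no test was made.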

How the data were processed

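Peak lists were used as deposited. HISAT2 2.1.0, HOMER and the build mm10 are named in the submitters' processing notes. Per the file headers, the deposited signal is the tag count of each called region or peak, normalized to 10000000 mapped tags, and the input libraries were not used in calling. The deposited p-values, scores and fold ratios were not used here.

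Called length and normalized tags of Pol II pieces were summed per merged region and library. Log2 of tags plus a pseudocount of 1, scaled by trimmed means of M-values, was tested with limma 3.58.1 (R 4.3.3) with a trend over the 17081 regions called in all 8 libraries, or over those with H3K27ac or HA peaks in all libraries of that target, at an adjusted p of 0.05 (Benjamini-Hochberg). Steps were tested on simulated data. The values are not whole counts, so no count model was used. The members, gene lists and tests were chosen with earlier results of these data known. Named regions were the longest, the densest, the largest called changes of each comparison, the largest length changes, the 3 strongest of each list and those at the length threshold. Vim, Csf3, Tnfaip3 and other members of a list beyond those, and the motif matches, were named after their values were seen. HA replicate numbers paired the libraries (correlations of deviations across regions 0.471, 0.770 and 0.617), so the blocked HA count stands beside the unblocked one. Peak lists limit precision to the depths given.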

Additional observations from a re-analysis of the deposited data

How the results depend on the processing

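Counts are of long regions called, unless said otherwise. Other limits of length or merging change the number of regions by construction. It was 703 at 15000 bp, 94 at 30000 bp and 754 with pieces within 2500 bp merged, against 326. In the same order, summed tags were called after LPS at 408, 68 and 410 in Nur77 cells (206 here) and at 306, 61 and 324 in GFP cells (171 here). Regions longer after LPS then numbered 370, 67 and 378 in Nur77 cells and 387, 70 and 405 in GFP cells, and shorter ones 127, 11 and 164 in Nur77 cells and 124, 12 and 143 in GFP cells. With length taken as the span from the first to the last called base, longer regions numbered 159 in Nur77 cells and 172 in GFP cells (199 and 211 here) and shorter ones 54 and 52 (48 and 49 here). Without the regions over input, fewer were tested and calls were 81 and 70 in summed tags and 32 and 27 in tags per kb in Nur77 and GFP cells, 1 between lines after LPS and 0 without LPS. Pieces under 20 tags left out gave 0 between lines without LPS.

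For Pol II the 2 replicate numbers share only a number (correlations 0.347 to 0.631), and with the replicate block the calls were 46 between lines after LPS and 21 without it in summed tags (36 and 10 higher), and 10 and 2 in tags per kb. With the block, LPS calls were 245 in Nur77 cells and 217 in GFP cells. Shares over all 17081 regions were not taken for these blocked Pol II fits. For H3K27ac a crossed replicate block, added after seeing the data, gave 256 calls in GFP cells, against 246. HA calls were 1 unscaled and 86 with the replicate block. The cause was not tested.

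With 1 library left out in turn, calls ranged from 146 to 210 (Nur77) and 127 to 170 (GFP) for LPS in summed tags, 44 to 98 and 42 to 80 in tags per kb, 0 to 6 between lines after LPS, 0 to 2 without LPS and 0 to 6 for HA. Regions longer ranged from 200 to 253 and 219 to 240, and shorter from 48 to 94 and 54 to 73. A lone library left in a group is assumed to vary like the others.

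Of the named values, 1135 kept their direction and side of the threshold, 137 lost the call, 3 gained it and 3 changed sign with no call: Hk3 in Nur77 cells at -0.19 unscaled, and Aldoa in GFP cells at 0.10 without GFP LPS replicate 2 and 0.24 without GFP untreated replicate 1, with a lowest value of -0.32 without GFP untreated replicate 2.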
